A study of Rattus norvegicus with 46 samples.

Results

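The genes described here encode the enzymes that attach glucuronic acid, sulfate or glutathione to drugs, hormones and products of metabolism: the UDP-glucuronosyltransferases (UGT), the cytosolic sulfotransferases (SULT) and the glutathione S-transferases (GST, with the membrane-bound MGST). They were chosen by symbol from a table of RNA sequencing counts of 32552 genes. Symbols of 43 genes matched the families, and the 34 with a mean of at least 1 CPM (counts scaled to the size of the library) in liver or in quadriceps were kept. These are 17 GST, 3 MGST, 9 SULT and 5 UGT genes. The 9 left out were Gstm3, Gstm5, Gstm6l, Gsto2, Gstt4, Sult1d1, Sult5a1, Sult6b1 and Ugt3a2. Closest to the limit, Sult1d1 averaged 0.939 CPM in liver and was left out, and Sult2b1 averaged 1.44 CPM there and was kept.

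The animals were wild-type rats, and the series text describes the liver samples as coming from rats with diet-induced obesity. One group received CagriSema, the combination of the amylin analogue cagrilintide and the GLP-1 receptor agonist semaglutide, for 20 days in the liver study. Another group, labelled weight matched, was held to a matched weight by food restriction, and the remaining rats received vehicle. Liver was represented by 7 CagriSema, 8 weight matched and 8 vehicle libraries, and quadriceps muscle by 8 CagriSema, 8 weight matched and 7 vehicle libraries. Dose, sex, age and the length of treatment behind the quadriceps samples were not given in the sources used here. Separate rats behind the libraries are not stated, and p-values then reflect library-to-library spread, which may be technical. Levels below are CPM scaled by TMM, a factor per library that aligns the bulk of genes. Means over the 23 libraries of a tissue, the limit of 1 CPM and the limits allowed for genes without counts are CPM without that factor. Each gene is compared only with itself, since gene lengths were not used.

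Conjugation makes fat-soluble compounds soluble in water so that they leave in bile or urine, and the liver carries out most of it. UGT enzymes draw on UDP-glucuronate and clear bilirubin, steroids and many drugs. SULT enzymes draw on the sulfate donor PAPS and act on phenols, estrogens and hydroxysteroids. GST enzymes join glutathione to electrophiles, among them products of lipid peroxidation. Transcription of many of these genes is known to answer to the oxidative stress factor NRF2, to the nuclear receptors CAR and PXR and to the aryl hydrocarbon receptor.

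Promoter sequence from RefSeq (build GRCr8, 250 bases before to 50 bases after the gene start) was matched by symbol to 1 entry for 27 members. Gstt2, which passed a test in liver, had no entry matched by symbol. Gsta2 and Gsta5 are shown because their levels varied together across the liver libraries. Gstk1 is shown because it passed a test in liver, and Sult1a1 because it passed one in quadriceps. Each runs 5′ to 3′ on the strand of its gene, and capitals mark any of 3 motifs searched on both strands: TGACNNNGC, a core of NRF2 sites, GCGTG, a core of aryl hydrocarbon receptor sites, and AGGTCA, a nuclear receptor half-site.
Gsta2, chr8:88077043-88077342, minus strand: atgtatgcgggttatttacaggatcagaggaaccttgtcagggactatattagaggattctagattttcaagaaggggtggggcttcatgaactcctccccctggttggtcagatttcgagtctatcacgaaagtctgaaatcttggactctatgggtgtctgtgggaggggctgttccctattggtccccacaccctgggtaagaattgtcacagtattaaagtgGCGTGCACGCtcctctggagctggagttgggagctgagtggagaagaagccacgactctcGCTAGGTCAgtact
Gsta5, chr8:87988104-87988403, plus strand: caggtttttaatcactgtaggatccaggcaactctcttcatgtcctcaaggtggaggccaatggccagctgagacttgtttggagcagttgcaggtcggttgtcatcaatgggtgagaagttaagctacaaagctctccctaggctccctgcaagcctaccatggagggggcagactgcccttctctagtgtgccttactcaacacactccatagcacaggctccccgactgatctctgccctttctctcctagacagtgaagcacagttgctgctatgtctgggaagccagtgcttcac
Gstk1, chr4:72085364-72085663, plus strand: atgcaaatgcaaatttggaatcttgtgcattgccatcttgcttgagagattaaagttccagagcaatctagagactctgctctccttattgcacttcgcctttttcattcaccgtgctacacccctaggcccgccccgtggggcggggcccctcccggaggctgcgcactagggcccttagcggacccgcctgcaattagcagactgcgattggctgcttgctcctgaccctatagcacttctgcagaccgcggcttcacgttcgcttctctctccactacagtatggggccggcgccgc
Sult1a1, chr1:190706063-190706362, minus strand: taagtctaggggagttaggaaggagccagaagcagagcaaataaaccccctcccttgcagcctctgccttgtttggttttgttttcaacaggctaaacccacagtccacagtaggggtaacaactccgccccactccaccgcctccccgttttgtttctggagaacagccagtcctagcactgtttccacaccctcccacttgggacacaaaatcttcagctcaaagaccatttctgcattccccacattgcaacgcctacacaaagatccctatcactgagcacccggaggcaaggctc
The Gsta2 window holds all 3 motifs, the NRF2 core and the half-site overlapping at its 3′ end and the GCGTG core on both strands just before the gene start. The windows of Gsta5, Gstk1 and Sult1a1 hold none of these letters. TGACNNNGC was present in 4 of the 27 member windows (14.8%), those of Gsta1, Gsta2, Gstp1 and Gstz1, against 12.1% of all promoter windows in the table. GCGTG was present in 7 (25.9%, against 29.7% of all) and AGGTCA in 4 (14.8%, against 16.2% of all). A match is a match of letters and not a measured site.

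All 34 members reached 1 CPM in liver, and 16 of them did so in quadriceps. Together they took 1.04 to 1.41% of the counts of a liver library under CagriSema, 1.02 to 1.39% in weight matched rats and 0.861 to 1.41% under vehicle, and 0.0263 to 0.0424% of the counts of any quadriceps library. The labels fitted their tissues: albumin lay between 54757 and 93687 CPM in liver and at no more than 30.9 CPM in quadriceps, and the muscle creatine kinase Ckm between 14715 and 29618 CPM in quadriceps and at no more than 13.4 CPM in liver.

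The UGT2 genes and nearly all SULT genes were liver transcripts. Ugt2b, a steroid- and drug-glucuronidating UGT2 enzyme, averaged 2890 ± 1000.3 CPM (SD, n = 23) in liver and 0.149 ± 0.388 CPM (SD, n = 23) in quadriceps. Sult1e1, the estrogen sulfotransferase, averaged 1000.3 ± 412 CPM in liver and 0.0424 ± 0.0904 CPM in quadriceps. Gsta2, Sult1c2, Sult1c2a and Sult4a1 had no count in any of the 23 quadriceps libraries, which allows up to 0.182 to 0.262 CPM in a library, taking 3 counts as the limit. Among the SULT genes, Sult1a1, a phenol sulfotransferase, was the one that reached 1 CPM in quadriceps, at 14.7 ± 2.85 CPM against 395 ± 62.2 CPM in liver. Ugt1a7c, the 1 row of the UGT1 cluster, stood at 484 ± 105 CPM in liver and 2.24 ± 0.960 CPM in quadriceps. RefSeq lists 8 UGT1 genes that end at the same base, so its counts may include reads of other UGT1 transcripts.

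The GST genes were shared more widely between the tissues. Gstp1, the pi-class enzyme, averaged 36.1 ± 3.84 CPM in quadriceps against 14.7 ± 4.24 CPM in liver, 2.45 times as much. Mgst3, a microsomal enzyme with glutathione peroxidase activity, averaged 86.6 ± 19.8 CPM in quadriceps against 42.9 ± 7.03 CPM in liver, 2.02 times as much. These were the 2 members with higher CPM in quadriceps than in liver. Gstm2, a mu-class enzyme, was at 874.5 ± 138 CPM in liver and 93.7 ± 17.0 CPM in quadriceps, and Mgst1, a microsomal GST, at 1234 ± 305 CPM in liver and 1.91 ± 0.706 CPM in quadriceps. In tissue RNA, fewer cells of a type and less RNA per cell cannot be told apart. The levels were part of the choice of members and are given as a description.

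Library totals were 9888858 to 15948219 counts in liver and 11462369 to 16525274 in quadriceps. In liver, vehicle library 4 stood apart for these genes: it held the highest value of all 23 libraries for 20 of 33 tested members (60.6%, against 30.7% of all tested genes). Its level was a median 2.02 times the median of the other vehicle libraries over the members, and 0.972 times over all tested genes. Liver results are also given without vehicle libraries 4 and 6, which earlier work on these data had set apart. What set library 4 apart was not tested.

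In liver, 1 conjugation gene, Gstk1, was lower in weight matched than in vehicle rats past the test, and none was higher. Gstk1 encodes the kappa-class GST of mitochondria and peroxisomes. Its level had a lowest, median and highest value of 41.1, 53.6 and 87.0 CPM in weight matched libraries, against 50.3, 85.7 and 409 CPM in vehicle libraries. The 409 CPM came from library 4, the next highest vehicle value was 102 CPM, and the groups overlapped. The log2 fold change was -1.09 ± 0.32 (SE; adjusted p = 0.0405). Without vehicle libraries 4 and 6 it was -0.43 (adjusted p = 0.149), and the call ended when vehicle library 4 or 6 or any of weight matched libraries 25 to 30 or 32 was left out. It also ended with no filter on low counts (adjusted p = 0.0817) and with the 2 groups fitted alone (adjusted p = 0.108).

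The 1 call among 33 tested members (3.03%) compares with 7.02% of all 12702 tested genes, and with 4.53% of them called lower. At an unadjusted p under 0.05 there were 9 members (27.3%, against 24.4% of all genes). DESeq2 called 3 of the 34 members in its fit, Gstk1, Ugt1a7c and Sult4a1, where it called 9.15% of all genes. The median log2 fold change was -0.13 over the members and -0.01 over all tested genes, with 13 members positive and 20 negative. Without vehicle libraries 4 and 6 the split was 21 positive and 12 negative, the median was 0.15 and the 1 member called was Gsto1 (3.03%, against 8.16% of all genes). Gsto1, the omega-class enzyme that also reduces dehydroascorbate, then had a log2 fold change of 0.40 (adjusted p = 0.0117), against 0.09 with all libraries. Gstp1 (0.32, adjusted p = 0.051, against -0.04 with all libraries) and Ugt1a7c (0.36, adjusted p = 0.0527) then fell just short. Without vehicle library 4 alone, 3 members were called, Gsto1, Gstp1 and Ugt1a7c, where 9.1% of all genes were called. The balance of signs over the members in this comparison therefore rested on vehicle libraries 4 and 6.

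Several other GST genes had negative values short of the threshold. Gstt1, a theta-class enzyme, had 27.8, 31.7 and 34.9 CPM (lowest, median, highest) in weight matched livers, against 27.4, 38.8 and 79.3 CPM in vehicle livers, a log2 fold change of -0.43 ± 0.15 (adjusted p = 0.0768). All 3 MGST genes had negative values: Mgst1 had 1018, 1102 and 1176 CPM in weight matched livers, against 987, 1254 and 3493 CPM in vehicle livers, with a log2 fold change of -0.48 ± 0.18 (adjusted p = 0.0976). Mgst3 had a log2 fold change of -0.34 ± 0.14 (adjusted p = 0.147). The vehicle maxima of Gstt1, Mgst1 and Mgst3 were again library 4. Without that library the log2 fold changes were -0.24 for Gstt1, -0.19 for Mgst1 and -0.17 for Mgst3, and without vehicle libraries 4 and 6 they were -0.17, -0.14 and -0.09.

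The UGT genes had positive values in weight matched livers, and none passed the test. Ugt1a7c had 438, 509 and 758 CPM in weight matched livers, against 394, 421 and 519 CPM in vehicle livers, with a log2 fold change of 0.33 ± 0.11 (adjusted p = 0.0713, or 0.0437 with DESeq2). The weight matched group reached higher, and the lower parts of the 2 groups overlapped. Ugt2b had 2220, 3048 and 4486 CPM in weight matched livers, against 869, 2536 and 3945 CPM in vehicle livers, a log2 fold change of 0.28 ± 0.25 (adjusted p = 0.504). The median over the 4 UGT2 genes was 0.36. Gstt2, another theta-class enzyme, had a log2 fold change of 0.36 ± 0.12 (adjusted p = 0.0779).

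The other changes beyond 1 on the log2 scale belonged to low transcripts and did not pass. Gsta3 had 2.61, 4.47 and 19.0 CPM in weight matched livers, against 0.611, 2.36 and 5.26 CPM in vehicle livers (log2 fold change 1.25 ± 0.48, adjusted p = 0.111). Sult1c2 had 1.13, 7.63 and 12.2 CPM in weight matched livers, against 0.122, 2.48 and 7.27 CPM in vehicle livers (1.39 ± 0.54, adjusted p = 0.116). Both were singled out after their values were seen.

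**Figure D1:**
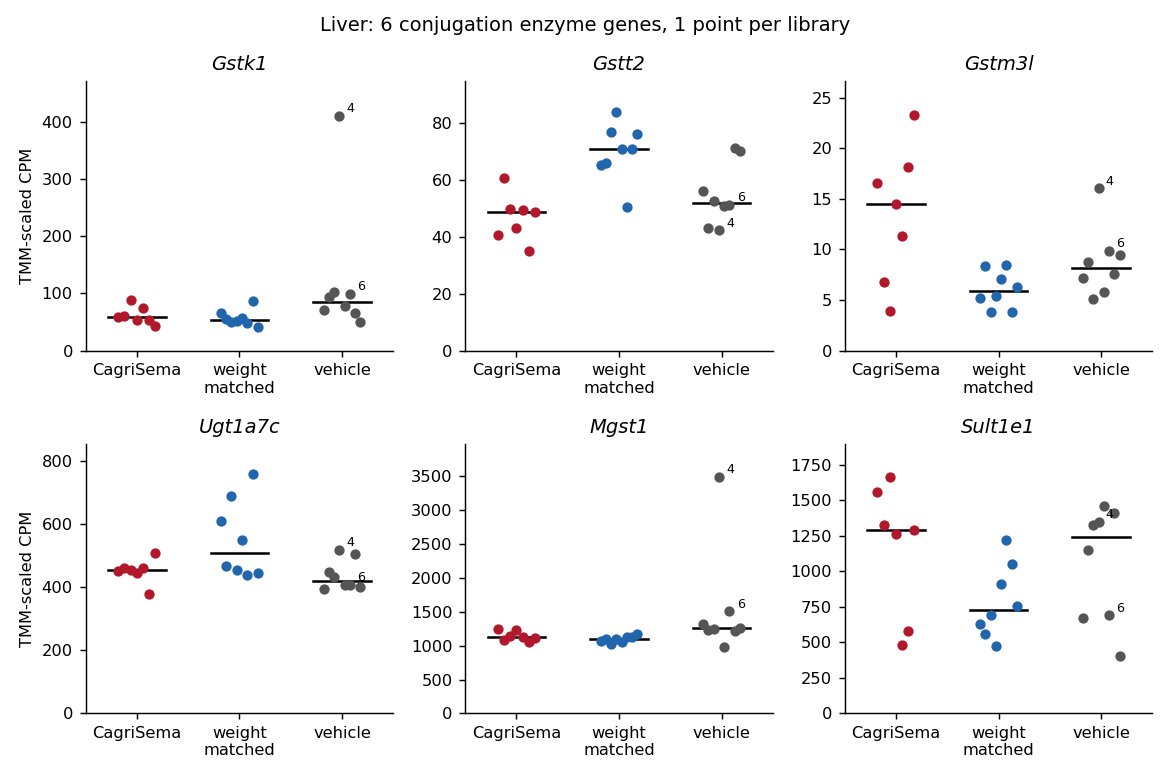
TMM-scaled CPM of Gstk1, Gstt2, Gstm3l, Ugt1a7c, Mgst1 and Sult1e1 in each liver library under CagriSema, weight matching and vehicle, with a line at the median and vehicle libraries 4 and 6 numbered. Library 4 is the highest point for Gstk1 at 409 CPM and for Mgst1 at 3493 CPM, and weight matched Gstt2 lies above CagriSema Gstt2 except for 1 library at 50.5 CPM.

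**Figure D2:**
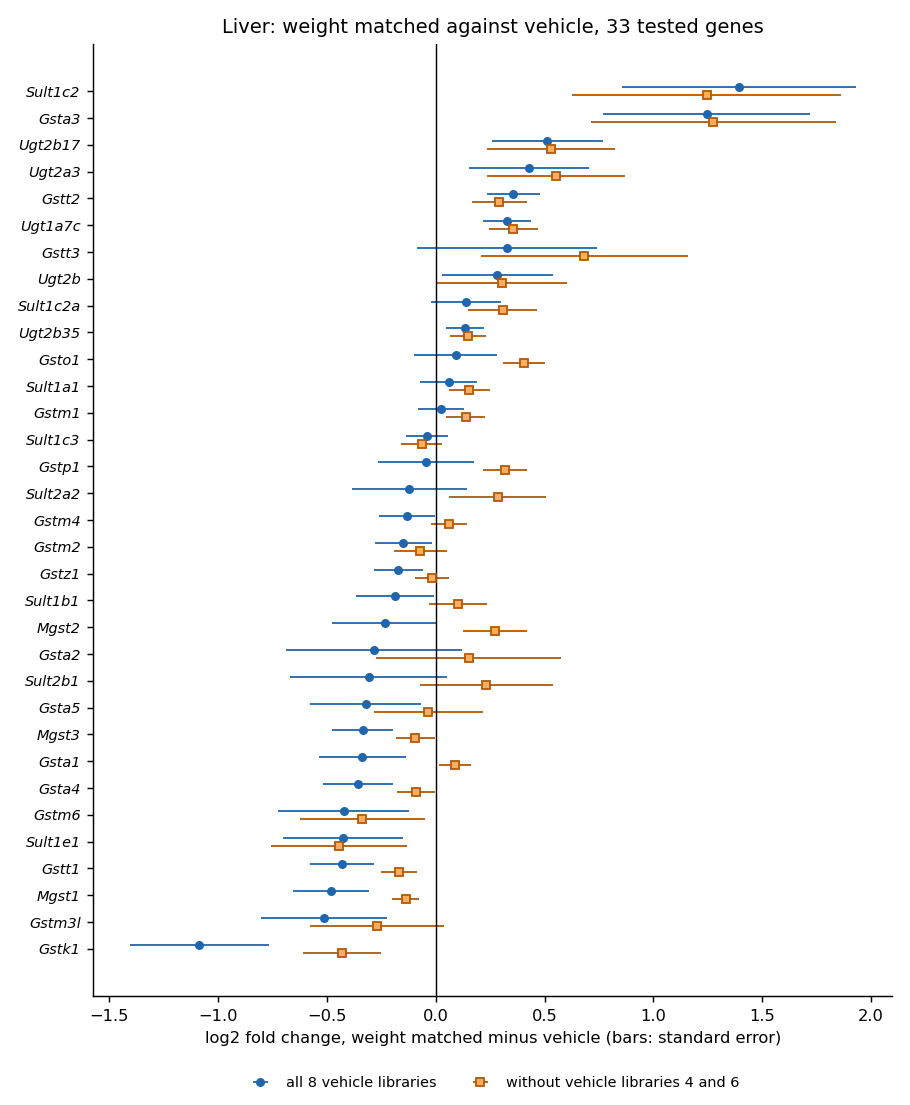
Log2 fold change of weight matched minus vehicle in liver for the 33 tested members, with standard errors, from all 8 vehicle libraries (circles) and without vehicle libraries 4 and 6 (squares). With all libraries 13 members lie above 0, and without the 2 libraries 21 do, while the UGT genes lie above 0 in both.

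No conjugation gene changed past the test between CagriSema and vehicle livers, 0 of 33 members by edgeR, against 0.354% of all tested genes. DESeq2, with 34 members in its fit, called 0, against 2.05% of all genes. By edgeR 6 members had an unadjusted p under 0.05 (18.2%, against 17.8% of all genes). The closest were Gstt1, Gstk1 and Mgst3, which had negative values as in weight matched livers, and the 2 comparisons share the vehicle libraries. Gstt1 had 27.4, 29.7 and 35.5 CPM in CagriSema livers, against 27.4, 38.8 and 79.3 CPM in vehicle livers (log2 fold change -0.49 ± 0.15, adjusted p = 0.139). Gstk1 had 43.2, 58.6 and 89.0 CPM in CagriSema livers, and its log2 fold change was -0.96 ± 0.33 (adjusted p = 0.168). Without vehicle library 4 the log2 fold changes were -0.30 for Gstt1, -0.36 for Gstk1 and -0.26 for Mgst3, and without vehicle libraries 4 and 6 they were -0.23, -0.30 and -0.18. The median over the members was -0.08, against -0.02 over all genes, and without vehicle libraries 4 and 6 it was 0.07.

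Set against weight matched livers, CagriSema livers had less Gstt2, the 1 member past the test among 33 (3.03%, against 0.535% of all tested genes, and 0.291% called lower). Gstt2 conjugates glutathione to small electrophiles and sulfate esters. It had 35.01, 48.7 and 60.9 CPM in CagriSema livers, against 50.5, 71.0 and 83.7 CPM in weight matched livers, and 42.3, 51.9 and 71.3 CPM in vehicle livers. Of the 8 weight matched libraries, 1 (library 30) lay within the CagriSema range. The log2 fold change was -0.58 ± 0.13 (adjusted p = 0.0325), and without vehicle libraries 4 and 6 it was -0.58 (adjusted p = 0.00877). At an unadjusted p under 0.05 there were 4 members (12.1%, against 10.6% of all genes). The call of Gstt2 ended with no filter on low counts (adjusted p = 0.0536) and in 12 of the 23 fits that left out 1 library: CagriSema libraries 33, 35, 36, 38, 39 and 40 and weight matched libraries 25, 27, 28, 29, 31 and 32.

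Gstm3l, a mu-class gene, lay the other way and just short of the threshold. It had 3.89, 14.5 and 23.2 CPM in CagriSema livers, against 3.78, 5.88 and 8.44 CPM in weight matched livers, and 5.06, 8.16 and 16.0 CPM in vehicle livers. The log2 fold change of CagriSema against weight matched was 1.15 ± 0.30 (adjusted p = 0.0803), 0.0128 with DESeq2 and 0.0269 by edgeR without vehicle libraries 4 and 6. It did not pass with other scaling, no filter on low counts, a filter at a mean of 1 CPM or the 2 groups alone. With 1 library left out it passed in 3 of 23 fits (adjusted p up to 0.191). In CagriSema livers 5 of 7 libraries lay above the highest weight matched library. The other mu-class genes share close sequence, and how the counting treated reads that match several was not given.

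Ugt1a7c had 379, 453 and 509 CPM in CagriSema livers, and its log2 fold change against weight matched livers was -0.29 ± 0.11 (adjusted p = 0.312). All 4 UGT2 genes also had negative values in this comparison, with a median of -0.22, and none passed. Sult1e1 spread widely within every group. It had 484, 1293 and 1662 CPM in CagriSema livers, 473, 726 and 1221 CPM in weight matched livers and 403, 1239 and 1458 CPM in vehicle livers. Its log2 fold change was 0.57 ± 0.28 for CagriSema against weight matched (adjusted p = 0.498) and -0.43 ± 0.28 for weight matched against vehicle (adjusted p = 0.341). With coefficients of variation of 39.4% in CagriSema, 32.4% in weight matched and 38.6% in vehicle livers, these differences did not pass the test.

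Some members varied together across libraries whatever the treatment. The alpha-class genes Gsta2 and Gsta5 shared all of their 5 lowest and 4 of their 5 highest liver libraries among 23. Gsta2 had 11.5, 34.03 and 56.7 CPM in CagriSema livers, 7.61, 30.8 and 39.6 CPM in weight matched livers and 9.51, 33.6 and 86.5 CPM in vehicle livers. Gsta5 had 277, 465 and 745 CPM in CagriSema livers, 185 (library 29), 422 and 531 CPM in weight matched livers and 271, 467 and 995 CPM in vehicle livers. The pair was chosen after its values were seen, and reads shared between these close relatives could move both. Ugt2b and Ugt2a3, both of the UGT2 family, shared 3 of their 5 lowest and 3 of their 5 highest libraries. Gsta1, with the highest CPM of the alpha class, had 426, 487 and 549 CPM in CagriSema livers, 411, 505 and 540 CPM in weight matched livers and 400, 473 and 1517 CPM in vehicle livers. Library 4 again set the vehicle maximum. Spread differed between genes: the coefficient of variation of Mgst1 was 6.30% in CagriSema, 4.64% in weight matched and 52.6% in vehicle livers, and 12.2% in vehicle livers without library 4. That of Gstt3, a theta-class enzyme, was 41.2% in CagriSema, 52.3% in weight matched and 72.3% in vehicle livers, and 79.7% in vehicle livers without library 4.

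**Figure D3:**
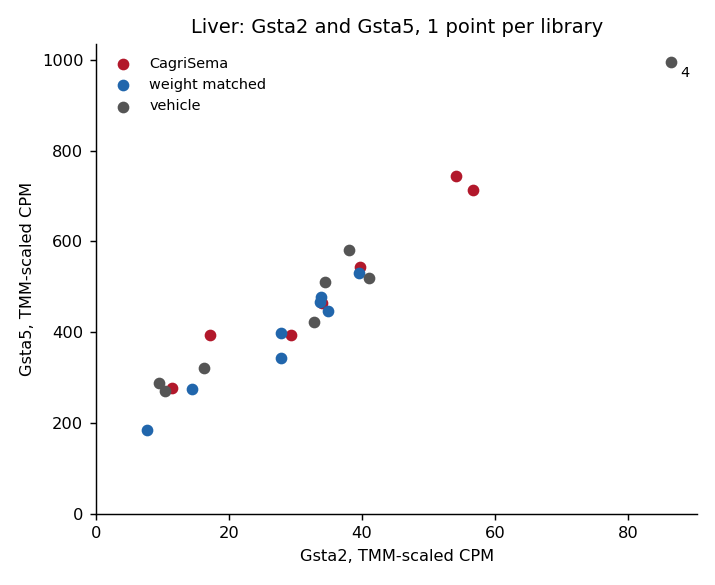
Gsta2 (horizontal) against Gsta5 (vertical), both TMM-scaled CPM, in the 23 liver libraries coloured by treatment. The libraries of all 3 groups lie along a rising band, from weight matched library 29 at 7.61 CPM Gsta2 to vehicle library 4 at 86.5 CPM.

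Further members, with the highest CPM of their family or among the lowest p-values, did not pass in any liver comparison. Sult2a2, a hydroxysteroid sulfotransferase, had 319, 432 and 650.1 CPM in CagriSema livers, 308, 444 and 635 CPM in weight matched livers and 196, 448 and 1174 CPM in vehicle livers. Gstz1, the maleylacetoacetate isomerase of tyrosine breakdown, had 343, 428 and 476 CPM in CagriSema livers, against 376, 484 and 798 CPM in vehicle livers (log2 fold change -0.28 ± 0.12, adjusted p = 0.232). Without vehicle library 4, which held the 798 CPM, it was -0.15, and without vehicle libraries 4 and 6 it was -0.12. Ugt2b35 had 534, 577 and 645 CPM in CagriSema livers, 571, 688 and 747 CPM in weight matched livers and 441, 630.5 and 738 CPM in vehicle livers, with the CagriSema median below both others and all ranges overlapping. The remaining tested members, Gstm1, Gstm4, Gstm6, Mgst2, Sult1b1, Sult1c2a, Sult1c3, Sult2b1, Ugt2a3 and Ugt2b17, had log2 fold changes for weight matched against vehicle between -0.42 (Gstm6) and 0.51 (Ugt2b17), and none passed.

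Sult4a1, a sulfotransferase known mainly from brain, was the 1 member that the filter of the main edgeR fit kept out of the liver tests. It had 0.0610, 0.611 and 9.96 CPM in CagriSema livers, 0, 0 and 0.298 CPM in weight matched livers and 0, 0.627 and 31.8 CPM in vehicle livers. Its high values lay in CagriSema library 39 and in vehicle libraries 6 and 4, and 6 of 8 weight matched libraries had no count. DESeq2, no filter on low counts and a filter at a mean of 1 CPM each called it in weight matched against vehicle. Those fits called 9.15%, 2.96% and 7.52% of all genes. It was also called there without CagriSema library 33, 35, 36 or 40. In CagriSema against weight matched DESeq2 called it as well (1.44% of all genes).

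Genes around the conjugation enzymes were read from lists of donor supply, export, reverse reactions, other conjugation, regulators and receptor targets. In weight matched against vehicle livers, 20 of 98 such genes passed (20.4%, against 7.02% of all tested genes), 10 higher and 10 lower. Of 7 tested genes of UDP-glucuronate supply, 3 were higher. None of 7 export genes and none of 4 aryl hydrocarbon receptor targets passed. Ugp2, which makes UDP-glucose, had 495, 753 and 940.2 CPM in weight matched livers, against 215, 498 and 535 CPM in vehicle livers (log2 fold change 0.73 ± 0.18, adjusted p = 0.0174). With the 2 groups fitted alone Ugp2 fell just short (adjusted p = 0.0517). Ugdh, which oxidises UDP-glucose to UDP-glucuronate, had 176, 231 and 307 CPM in weight matched livers, against 127, 176 and 198 CPM in vehicle livers (0.42 ± 0.10, adjusted p = 0.0104). The remaining higher gene, Slc35a3, a nucleotide sugar transporter, is named after its value was seen (0.31 ± 0.09, adjusted p = 0.0459), and its call held in 7 of 23 fits without 1 library and ended without vehicle libraries 4 and 6 (adjusted p = 0.0812). Of 8 genes of sulfate donor supply, 2 were lower, the PAPS synthase Papss2 (-0.42 ± 0.10, adjusted p = 0.0152) and the sulfite oxidase Suox (-0.57 ± 0.09, adjusted p = 0.00101).

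Of 8 genes of glutathione supply, Gclm, the modifier subunit of the enzyme that starts glutathione synthesis, was higher and the cystathionine lyase Cth was lower. Gclm had 186, 243 and 336 CPM in weight matched livers, against 84.8, 134 and 176 CPM in vehicle livers, and the groups did not overlap (0.93 ± 0.15, adjusted p = 0.00101). Cth had a log2 fold change of -1.09 ± 0.26 (adjusted p = 0.0129), and without vehicle libraries 4 and 6 -0.69 (adjusted p = 0.0663). Of 7 reverse-reaction genes 1 passed, the beta-glucuronidase Gusb (-0.28 ± 0.08, adjusted p = 0.0303). Its call ended without vehicle library 6 or weight matched library 25, 26 or 30. It also ended with no filter on low counts (adjusted p = 0.0666) and with the 2 groups fitted alone (adjusted p = 0.0812). Of 13 genes of other conjugation, Glyat, which couples glycine to acyl groups, and the arsenic methyltransferase As3mt were higher (0.46 ± 0.10, adjusted p = 0.00732, and 0.42 ± 0.10, adjusted p = 0.0100). The nicotinamide methyltransferase Nnmt, named after its value was seen, was lower (-1.34 ± 0.34, adjusted p = 0.0177). Its call ended with the 2 groups fitted alone (adjusted p = 0.0582).

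Among 25 regulators, Nr1i3, which encodes CAR, and the small Maf protein Maff were higher (1.44 ± 0.42, adjusted p = 0.0374, and 1.17 ± 0.32, adjusted p = 0.0306), and Nr1h3, which encodes LXR alpha, was lower (-0.36 ± 0.09, adjusted p = 0.0194). Nr1i3 had 25.6, 75.2 and 114 CPM in weight matched livers, against 7.60, 21.99 and 65.6 CPM in vehicle livers. Its call ended without vehicle libraries 4 and 6 (1.18, adjusted p = 0.118), as did that of Maff (1.07, adjusted p = 0.0596). Of 12 CAR and PXR targets, Cyp3a62 and Por, the P450 reductase, were higher (0.78 ± 0.17, adjusted p = 0.00636, and 0.62 ± 0.17, adjusted p = 0.0257) and Cyp2c7 was lower (-1.47 ± 0.39, adjusted p = 0.0234). Without vehicle libraries 4 and 6, Por (adjusted p = 0.0678) and Cyp2c7 (adjusted p = 0.0605) did not pass. With the 2 groups fitted alone, Nr1h3 (adjusted p = 0.0787) and Por (adjusted p = 0.0709) did not pass. With no filter on low counts, Nr1i3 (adjusted p = 0.0852) and Cyp2c7 (adjusted p = 0.0539) did not pass. With 1 library left out, the call of Nr1i3 held in 12 of 23 fits (adjusted p up to 0.0757). That of Maff ended without vehicle library 5, 6 or 8 or weight matched library 25, 26, 27 or 30, that of Por without vehicle library 6 or weight matched library 25 or 27, and that of Cyp2c7 without vehicle library 6. Of 13 NRF2 targets outside the families, Gclm was higher.

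In CagriSema against vehicle livers, 0 of the 98 genes passed by edgeR (against 0.354% of all tested genes). DESeq2 called 3 list genes, where it called 2.05% of all genes. By edgeR 21 had an unadjusted p under 0.05 (21.4%, against 17.8% of all genes). For CagriSema against weight matched livers, DESeq2 called 8 list genes, where it called 1.44% of all genes. By edgeR CagriSema livers had less of 3 of the 98 genes (3.06%, against 0.535% of all tested genes). These were Ugp2, at 265, 395 and 452 CPM in CagriSema livers (log2 fold change -0.998 ± 0.190, adjusted p = 0.0137), Gclm, at 105, 140.5 and 198 CPM (-0.69 ± 0.16, adjusted p = 0.0410), and Glyat, at 246, 257 and 293 CPM (-0.55 ± 0.10, adjusted p = 0.0133). With 1 library left out, the calls of Ugp2 and Glyat held in 23 of 23 fits and that of Gclm in 10 (adjusted p up to 0.126).

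Cell-type markers moved between weight matched and vehicle livers as well. Of 11 hepatocyte markers 3 were lower in weight matched livers, Apoa1, Serpina1 and Hpx, and the summed level of the list was 121138 to 149717 CPM in CagriSema and 125926 to 156037 CPM in weight matched livers, against 136833 to 225771 CPM in vehicle livers. Of 4 erythroid markers 3 were lower, with a summed level of 126 to 175 CPM in CagriSema and 63.4 to 139 CPM in weight matched livers, against 128 to 755 CPM in vehicle livers. Of 10 periportal hepatocyte markers 3 were lower, Sds, Gls2 and Ass1, and the list summed to 8376 to 11756 CPM in CagriSema and 9790.4 to 12200.2 CPM in weight matched livers, against 9302 to 19632 CPM in vehicle livers. Of 9 tested pericentral markers Cyp2e1 and Cyp27a1 were higher and Oat was lower, and the list summed to 2699 to 7311 CPM in CagriSema and 5175 to 7049 CPM in weight matched livers, against 2871 to 6427 CPM in vehicle livers. The endothelial marker Clec14a, the stellate cell marker Pdgfra and the nerve sheath marker Prx were higher, 1 of 9, 1 of 9 and 1 of 3 tested in their lists. Of 11 macrophage markers none passed. Between CagriSema and vehicle livers, where no member passed, the hepatocyte marker Alb and the periportal marker Pck1 were lower and Pdgfra was higher. The part of these markers in the changes of the conjugation genes was not tested.

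In quadriceps, 17 members entered the main test. Of these 1, Sult1a1, was higher in weight matched than in vehicle rats past the test (5.88%, against 2.29% of all 12471 tested genes, and 1.11% called higher). Sult1a1 had 14.0, 16.9 and 21.2 CPM in weight matched quadriceps, against 9.11, 10.3 and 16.6 CPM in vehicle quadriceps, with 9.80, 14.8 and 17.8 CPM in CagriSema quadriceps. The upper vehicle libraries overlapped with the lower weight matched ones. The log2 fold change was 0.49 ± 0.13 (adjusted p = 0.0448). At an unadjusted p under 0.05 there were 3 members (17.6%, against 19.2% of all genes). Leaving out vehicle libraries 2 and 5, which earlier work on these data had set apart, gave 0.38 (adjusted p = 0.239). The call also ended with no filter on low counts (adjusted p = 0.0546) and with the 2 groups fitted alone (adjusted p = 0.107), and 14 of 23 fits without 1 library ended the call. Those libraries were vehicle 2, 5, 6 and 8, weight matched 25, 26, 28, 29, 30 and 31, and CagriSema 33, 35, 36 and 39. Liver Sult1a1 had 329, 339 and 448 CPM under CagriSema, 352, 409.8 and 492.6 CPM in weight matched rats and 293, 383 and 658 CPM under vehicle.

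Gstm2 had 77.4, 99.9 and 127 CPM in weight matched quadriceps and 76.7, 98.6 and 140.0 CPM in CagriSema quadriceps, against 59.7, 86.5 and 97.2 CPM in vehicle quadriceps. Its log2 fold change was 0.34 ± 0.12 in both comparisons, which share the vehicle libraries, with adjusted p = 0.117 for weight matched and 0.323 for CagriSema. Gsta4, the alpha-class enzyme that takes 4-hydroxynonenal, a product of lipid peroxidation, had 1.14, 2.33 and 3.30 CPM in weight matched quadriceps, against 1.56, 3.45 and 5.79 CPM in vehicle quadriceps (-0.57 ± 0.23, adjusted p = 0.166).

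Between CagriSema and vehicle quadriceps 0 of 17 members passed by edgeR, against 0.0321% of all tested genes. DESeq2, with 30 members in its fit, called 0, against 0.289% of all genes. By edgeR 2 had an unadjusted p under 0.05 (11.8%, against 10.3% of all), Gstm2 and Gstp1. Gstp1 had 32.99, 38.3 and 41.3 CPM in CagriSema quadriceps, against 28.1, 31.7 and 41.3 CPM in vehicle quadriceps (log2 fold change 0.18 ± 0.07, adjusted p = 0.370). Sult1a1 had a log2 fold change of 0.25 ± 0.13 there (adjusted p = 0.507).

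Between CagriSema and weight matched quadriceps 0 of 17 passed by edgeR, against 0.128% of all tested genes. DESeq2, with 30 members in its fit, called 0, against 0.251% of all genes. By edgeR 3 had an unadjusted p under 0.05 (17.6%, against 7.65% of all). Gsta4 had 2.49, 3.53 and 4.76 CPM in CagriSema quadriceps, against 1.14, 2.33 and 3.30 CPM in weight matched quadriceps (log2 fold change 0.61 ± 0.22, adjusted p = 0.505). Gstt3, a theta-class enzyme, had 1.033, 4.38 and 8.52 CPM in CagriSema quadriceps, against 0.232, 1.96 and 4.49 CPM in weight matched quadriceps (0.98 ± 0.42, adjusted p = 0.610). Gsto1 had 28.9, 34.8 and 38.7 CPM in CagriSema quadriceps, against 25.04, 29.4 and 35.4 CPM in weight matched quadriceps (0.19 ± 0.09, adjusted p = 0.619). For all 3 genes the groups overlapped. Mgst3, with the highest quadriceps CPM of the MGST genes, had 66.4, 92.7 and 112 CPM in CagriSema, 55.8, 82.9 and 95.3 CPM in weight matched and 63.4, 84.0 and 137 CPM in vehicle quadriceps.

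**Figure D4:**
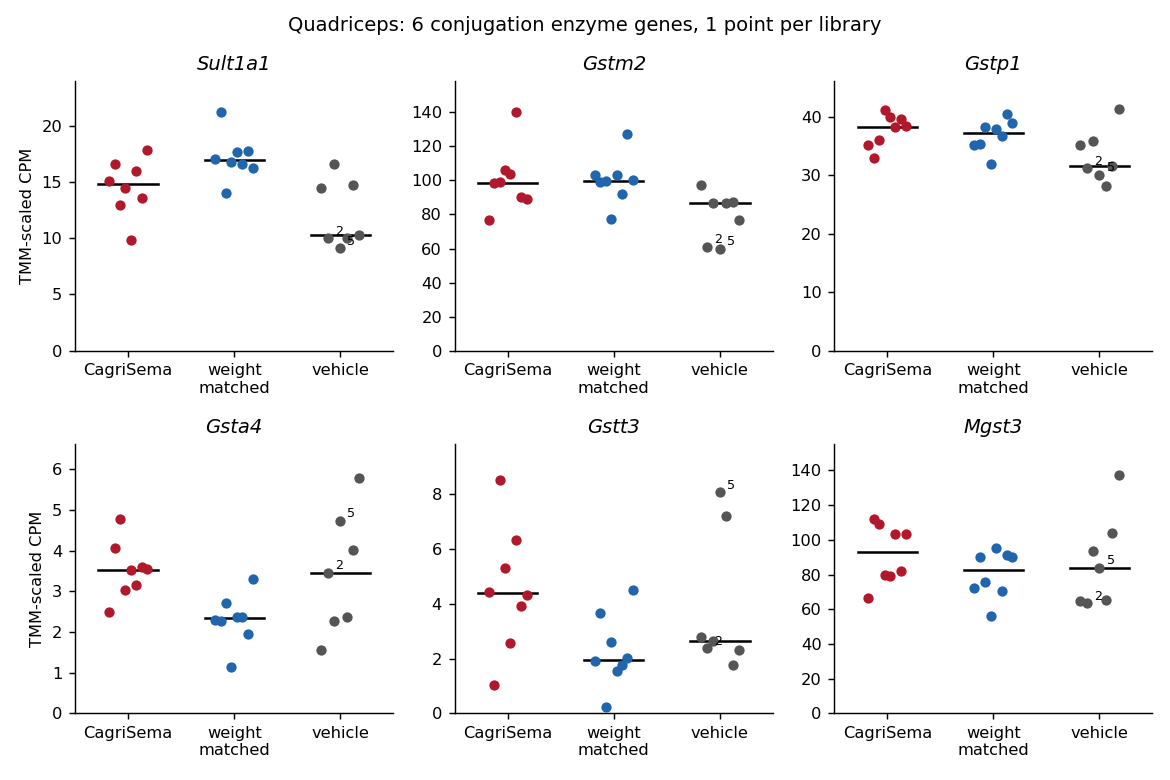
TMM-scaled CPM of Sult1a1, Gstm2, Gstp1, Gsta4, Gstt3 and Mgst3 in each quadriceps library under CagriSema, weight matching and vehicle, with a line at the median and vehicle libraries 2 and 5 numbered. Sult1a1 reaches 21.2 CPM in weight matched and 16.6 CPM in vehicle quadriceps, and the groups overlap for each gene.

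Of the related genes in quadriceps, 1 of 70 tested passed in weight matched against vehicle (1.43%, against 2.29% of all). DESeq2 called 3, where it called 6.27% of all genes. The gene past the edgeR test was Nqo1, a quinone reductase under NRF2 and aryl hydrocarbon receptor control. It had 12.6, 15.8 and 17.99 CPM in weight matched quadriceps, against 8.26, 11.4 and 13.7 CPM in vehicle quadriceps (log2 fold change 0.45 ± 0.12, adjusted p = 0.0449). Without vehicle libraries 2 and 5 it did not pass (0.43, adjusted p = 0.129), and with 1 library left out the call held in 8 of 23 fits (adjusted p up to 0.111). Of 3 tested hepatocyte markers, F2 was lower in weight matched than in vehicle quadriceps (-1.56 ± 0.37, adjusted p = 0.0305). Of 5 tested pericentral hepatocyte markers, Glul and Oat were higher (0.79 ± 0.14, adjusted p = 0.00975, and 0.29 ± 0.07, adjusted p = 0.0307). What moved these markers was not tested. Of 10 fibroblast markers, Col1a1 and Col3a1 were lower in weight matched quadriceps (-1.52 ± 0.35, adjusted p = 0.0315, and -1.27 ± 0.28, adjusted p = 0.0262). The list summed to 4124 to 5036 CPM in CagriSema and 4398 to 5203 CPM in weight matched, against 4077 to 7144 CPM in vehicle quadriceps, and its part in the Sult1a1 and Nqo1 changes was not tested.

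The 17 members too low for the main test in quadriceps summed to 53 counts in vehicle library 2. They summed to 21 in CagriSema library 40, 12 in CagriSema library 39 and 0 to 8 in each other library. The same 3 libraries held the most albumin, 30.9, 13.8 and 10.9 CPM. Ugt2b gave 23 of the 53 counts in vehicle library 2. Whether liver RNA reached those 3 libraries was not tested. Leaving the 3 out gave a log2 fold change of 0.45 for Sult1a1 in weight matched against vehicle (adjusted p = 0.101), an alternative added after the data were seen.

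Whether a treatment changed these genes differently in liver and in quadriceps was tested as the liver change minus the quadriceps change over all 46 libraries. By edgeR 0 of 33 members passed for weight matched against vehicle, 0 for CagriSema against vehicle and 0 for CagriSema against weight matched, against 2.76%, 0.149% and 0.0213% of all 14110 tested genes. Of these 33 members 16 were too low for the main test in quadriceps alone, and their differences hold little information. Among the 17 tested in both tissues 0 passed in each comparison. At an unadjusted p under 0.05 there were 6 of them for weight matched against vehicle (35.3%, against 18.6% of all genes), 5 for CagriSema against vehicle (29.4%, against 15%) and 2 for CagriSema against weight matched (11.8%, against 7.31%). For weight matched against vehicle, the difference was -1.12 ± 0.36 for Gstk1 (adjusted p = 0.0737) and 0.80 ± 0.27 for Ugt1a7c (adjusted p = 0.0889), whose quadriceps level was 0.999, 1.58 and 3.56 CPM in weight matched and 1.65, 2.34 and 4.38 CPM in vehicle libraries. Larger differences, such as 3.66 ± 1.34 for Ugt2b (adjusted p = 0.122), rested on 2 counts over the weight matched and 26 over the vehicle quadriceps libraries.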

How the data were processed

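The deposited values are raw counts per gene, whole numbers in 1 table of the series, and 46 count columns were matched to libraries by title; 1 further count column matched no library and was not used. Extraction used an RNeasy kit and library preparation the Twist UMI system, per the labels' protocols. The tools named are STAR 2.5.2b and fastp 0.23.1, per the submitters' processing notes. Build, annotation, strandedness and whether molecular identifiers entered the counts were not given in the sources used here.

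Tests used edgeR 4.0.16 in R 4.3.3 on the counts as deposited: filterByExpr, TMM scaling, robust quasi-likelihood F tests on the 3 groups of a tissue, and Benjamini-Hochberg adjustment over all genes tested, 12702 in liver and 12471 in quadriceps, at a threshold of 0.05. Adjusted p-values in the text are from this test unless DESeq2 1.42.0 is named. Standard errors came from the same fits. Tissue differences were interaction contrasts over 14110 genes. The procedure was tested on simulated data. A count of 0 was taken to allow 3 counts, or 0.188 to 0.303 CPM in liver, for counting error only. Counts of 253 pairs of libraries in each tissue were compared by chi-square per degree of freedom. It was at least 12.9 in liver and 5.47 in quadriceps, so no pair differed by counting error alone. This cannot tell libraries of 1 rat from libraries of separate rats. The labels name no batch.

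The members and gene lists were chosen with earlier results of these data known. Members were named if they passed a test, had the highest CPM of their family in a tissue, or were among the 3 lowest p-values of a comparison. List genes past the threshold were named, at most the 3 with the lowest p per list and comparison; others are marked in the text. Alternatives were other scaling, DESeq2, other filters, 2 groups alone, each library left out in turn, and the libraries that stood apart left out. The results of some list genes are not reported here.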

Additional observations from a re-analysis of the deposited data

Results flagged for a closer look

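In 102 groups of named members, a single library lay far from the rest of its group in 17. A rate of about 1 in 20 groups by chance holds for normally spread, independent values and was not computed on these data. Groups of different genes share libraries and are not independent. In 13 of the 17 the single library was vehicle library 4 in liver, the highest of 8. Its values there were 1517.1 CPM for Gsta1, 182.6 CPM for Gsta4, 409.5 CPM for Gstk1, 16.0 CPM for Gstm3l, 228.4 CPM for Gsto1, 40.4 CPM for Gstp1 and 79.3 CPM for Gstt1. They were 798.3 CPM for Gstz1, 3493.5 CPM for Mgst1, 89.5 CPM for Mgst3, 658.1 CPM for Sult1a1, 1173.8 CPM for Sult2a2, a hydroxysteroid sulfotransferase, and 4.86 CPM for Sult2b1. The other vehicle libraries reached at most 13.0 CPM for Gstp1, 1504 CPM for Mgst1 and 102 CPM for Gstk1.

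The other 4 were single genes in different libraries. Gsto1 was at 140.1 CPM in weight matched liver library 25, against 90.5 to 104 CPM in the other 7. Gstm2 was at 140.0 CPM in CagriSema quadriceps library 38, against 76.7 to 106 CPM in the other 7. Gstt1 was at 1.61 CPM in weight matched quadriceps library 28, against 0.464 to 0.991 CPM. Mgst1 was at 3.88 CPM in vehicle quadriceps library 2, the library with the most albumin, against 1.09 to 2.26 CPM.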

How the results depend on the processing

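The number of members that passed was small in every comparison and moved with single choices, as did the share of all genes called, given here in brackets. For liver weight matched against vehicle it was 1 (7.02%), but 3 with DESeq2 (9.15%), 2 with a filter at a mean of 1 CPM (7.52%) and 0 with the 2 groups alone (3.38%). It was 0 to 5 when 1 library was left out (4.2 to 9.52%), 5 without vehicle library 7 (9.52%). With no filter on low counts it was 1 (2.96%), Sult4a1 and not Gstk1, and without vehicle libraries 4 and 6 it was 1 (8.16%), Gsto1 and not Gstk1. Sult4a1 was also called by DESeq2 and with the filter at a mean of 1 CPM. For liver CagriSema against weight matched it was 1 (0.535%), but 3 with DESeq2 (1.44%), 0 with no filter (0.208%), 2 without vehicle libraries 4 and 6 (4.62%) and 0 to 2 when 1 library was left out (0.211 to 2.64%). For quadriceps weight matched against vehicle it was 1 (2.29%), but 0 with no filter (0.61%), with the 2 groups alone (0.0572%), without vehicle libraries 2 and 5 (0.151%) and without the 3 libraries with most albumin (0.736%). It was 0 to 1 when 1 library was left out (0.367 to 5.15%). The 3 other comparisons within a tissue stayed at 0 under every alternative run. Of 102 log2 fold changes of named members, 32 changed sign in at least 1 other fit, none of them called. Gsta1 in liver weight matched against vehicle had -0.34 with all libraries and turned to 0.0885 without vehicle libraries 4 and 6. Without the 4 outlying vehicle libraries, the tissue difference was called for 1 member, Gsto1, in weight matched against vehicle (1.33% of all genes) and for 1, Gsto1, in CagriSema against weight matched (0.982%).

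Liver and quadriceps libraries share 22 numbers, which the labels do not tie to 1 rat. Deviations of same-numbered libraries from their group means correlated at 0.00153 to 0.250 over 11131 genes, with 11 of 22 over 0.1. In 18 of 22 cases the library with the same number correlated best within its treatment, a hint of pairing from the data, not the design. The fit without the block was kept because the labels do not state the pairing and not every correlation was over 0.1. With the number as a block, 0 members passed in each of the 3 tissue differences, as without it, and 283, 10 and 0 of all genes did, against 389, 21 and 3 without the block.

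In quadriceps 17 members were too low for the main test, at library totals like those of liver. The causes of these shifts were not tested.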
